A study of Bos taurus with 2 samples.

Results

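Glycolysis splits glucose into pyruvate and lactate, and the pentose phosphate pathway branches off after the first phosphorylation to supply NADPH and ribose. Both run in every blood cell: mature red cells have no mitochondria and make their ATP by glycolysis, and neutrophils depend on glycolysis for energy and on NADPH for the oxidative burst. The 29 genes described here are 18 glycolytic enzymes, 6 pentose phosphate enzymes and 5 genes of regulatory or side reactions, chosen by gene name. All 29 were searched for among the named probes of a bovine oligonucleotide array, by gene symbol or by the gene of the reference transcript that a probe was designed on. The search found 87 probes for 28 genes, of 43653 distinct probes and 16959 named genes on the array. HK2, a hexokinase, had no probe under these names.

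The study compared Holstein cattle (Bos taurus) by residual feed intake, which is feed eaten in excess of the need predicted from body size and milk yield or growth. Total RNA of 2 specimens of whole blood was labelled with Cy3 and read on 1 array for low feed efficiency, which is high residual feed intake, and on 1 array for high feed efficiency, which is low residual feed intake. The labels give no treatment, age or lactation stage, and do not say how many animals a specimen stands for. Each difference is therefore between 2 specimens, with no test and no SD over animals, and less RNA per cell cannot be told apart from fewer cells of a type.

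Values are Cy3 spot intensities after background subtraction, in arbitrary units. Differences are log2 of low minus high feed efficiency after each array was divided by its 75th percentile (98 in low-efficiency and 81 in high-efficiency blood), and are given relative to the median of all 10339 genes measured. A gene counted as measured when a probe exceeded 10.9 on both arrays, the median of the negative controls plus 3 robust SDs, and its brightest such probe gave its value. Of the members' probes, 75 (86.2%) passed on both arrays, against 51.0% of all probes, and these gave values for all 28 genes. Over replicate spots of one probe the SD of the log2 difference was 0.10 for bright and 0.23 for dim probes, split at an intensity of 135. The number of arrays limits the precision, and a brightness is not compared between probes.

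None of the 28 enzymes was 2-fold apart between the specimens, where 0.938% of all genes were (0.368% higher and 0.571% lower in low feed efficiency). None was 1.5-fold apart in the values as reported, against 5.82% of all genes, although ENO1 was with the pixel mean and RPIA and RPE were with spike-in scaling. Within that narrow range most glycolytic enzymes lay a little below the median of all genes in low feed efficiency: 14 of 17 were below and 3 above, with a median of -0.13. The 3 above were both lactate dehydrogenases, which interconvert pyruvate and lactate, and PGK1 at 0.01. The pentose phosphate enzymes were divided, 3 above and 3 below, with a median of -0.03. The 5 regulatory and side enzymes had a median of 0.10, with 3 above and 2 below. Over the 28 genes, 8 lay at least 0.2 below the median, against 23% of all genes, and 3 lay at least 0.2 above it, against 23.9% of all genes. The share below is near that background and the share above is smaller, and 17 members stayed within 0.2 of the median, as did 53.1% of all genes.

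**Figure D1:**
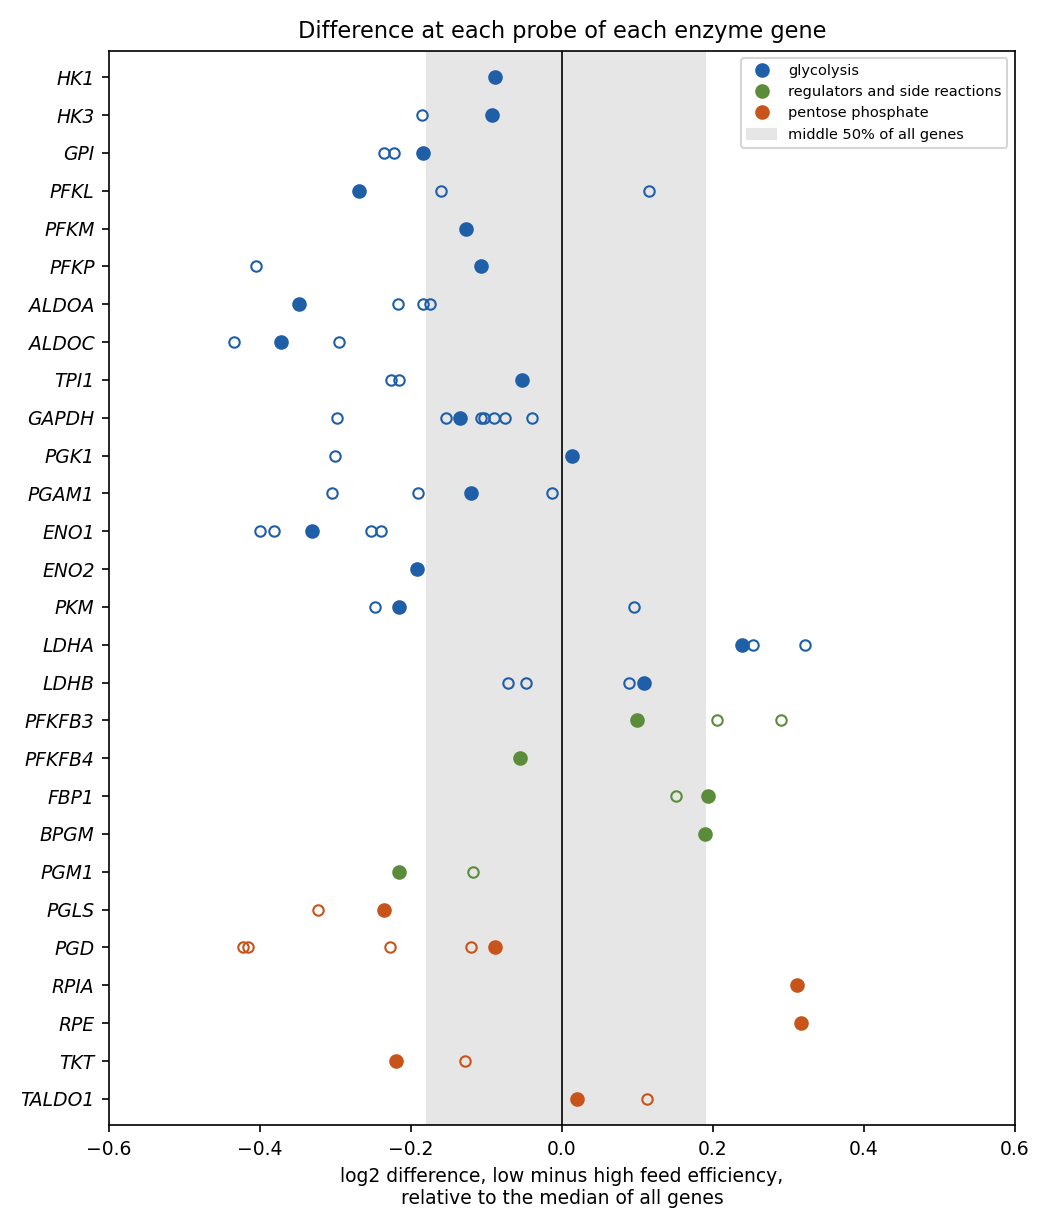
Log2 difference, low-efficiency minus high-efficiency blood (x axis, relative to the median of all genes) at every probe above background on both arrays, by enzyme gene in pathway order (y axis). Filled points are the brightest probe of a gene and open points its other probes. Colours give the pathway, and the grey band is the middle 50% of all genes. Every probe of ALDOA, ALDOC, ENO1 and ENO2 lies left of 0. So do those of HK1, HK3, GPI, PFKM, PFKP, TPI1, GAPDH, PGAM1, PFKFB4, PGM1, PGLS, PGD and TKT. Every probe of LDHA lies right of 0, as do those of PFKFB3, FBP1, BPGM, RPIA, RPE and TALDO1.

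The hexokinases, which trap glucose in the cell as its phosphate, lay just below the median. HK1, the form that red cells depend on, read 1712 in low-efficiency and 1546 in high-efficiency blood, a difference of -0.09. HK3, a form of white blood cells, read 1108 in low-efficiency and 1003 in high-efficiency blood, also -0.09, and its other probe gave -0.19. Between these isoenzymes the differences were 0.00 apart by the brightest probes.

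GPI turns glucose phosphate into fructose phosphate and read 3183 in low-efficiency and 3072 in high-efficiency blood, a difference of -0.18, with its 3 probes between -0.24 and -0.18. The phosphofructokinases then commit the sugar to glycolysis, and their isoenzymes, the liver type PFKL, muscle type PFKM and platelet type PFKP, could not be ranked. By its brightest probe PFKL read 732 in low-efficiency and 749 in high-efficiency blood (-0.27), but its other probes read 88 against 69 (0.12) and 39 against 37 (-0.16). PFKP gave -0.11 at 293 in low-efficiency and 268 in high-efficiency blood and -0.41 at 128 and 144. PFKM was measured by 1 of its 6 probes, at a low signal of 55 in low-efficiency and 51 in high-efficiency blood (-0.13). Another PFKM probe was above background in low feed efficiency only, at 14 against 7, at least 1.05-fold higher. PFKL minus PFKP was -0.16 by the brightest probes and 0.15 by the mean over probes, so the order of these forms turned with the choice of probe.

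The aldolases, which cut fructose bisphosphate into a pair of triose phosphates, were the 2 lowest of the 28 genes by their brightest probes. With the pixel mean or normexp ENO1 was lower than both. By the mean over probes ALDOA (-0.23) lay above ENO1 (-0.33), PGLS (-0.28), PFKP (-0.26) and PGD (-0.26) as well as ALDOC (-0.37). With loess ENO2 (-0.249) was just below ALDOA (-0.246). ALDOA, the form of muscle and red cells, read 14409 in low-efficiency and 15578 in high-efficiency blood, a difference of -0.35. Its other 3 probes lay between -0.22 and -0.17. ALDOC, best known from brain, read 1128 in low-efficiency and 1240 in high-efficiency blood, a difference of -0.37 with probes from -0.44 to -0.30. Of all genes measured, 8.99% lay lower than ALDOC and 10.4% lower than ALDOA. Both raw intensities were thus dimmer on the array that was the brighter one by its 75th percentile, as was also the case for PFKL and ENO1. The aldolases were 0.02 apart by their brightest probes, within the spot error of 0.14 for the difference between a pair of such differences. TPI1, which interconverts the triose phosphates, was nearer the median at -0.05 (6316 in low-efficiency and 5562 in high-efficiency blood), with its other probes at -0.23 and -0.22.

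In the lower steps of glycolysis, where ATP and NADH are made, GAPDH and the mutase PGAM1 lay slightly below the median on every probe. GAPDH, often used as a reference gene, read 19392 in low-efficiency and 18090 in high-efficiency blood, a difference of -0.14 with 8 probes between -0.30 and -0.04; its 2 brightest spots were not flagged good on the low feed efficiency array. PGAM1 read 7681 in low-efficiency and 7094 in high-efficiency blood, a difference of -0.12 with 4 probes between -0.31 and -0.01. Both have near-identical copies in the genome that a probe may not tell apart. The kinase PGK1, which makes the first ATP of these steps, read 1961 in low-efficiency and 1650 in high-efficiency blood (0.01). Its second probe read 910 and 766 (0.01) and its dimmest 217 and 227 (-0.30), so its side of the median rested on the probe.

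The enolases, which make phosphoenolpyruvate, went with the aldolases. ENO1, the widespread form, read 20897 in low-efficiency and 22332 in high-efficiency blood, a difference of -0.33, and its 5 probes lay between -0.40 and -0.24. The 2 brightest ENO1 probes were not flagged good by the scanner software on either array, and the probe used when only good spots were kept gave -0.24. ENO2, the form of neurons, was dim at 33 in low-efficiency and 32 in high-efficiency blood (-0.19). These aldolases and enolases were set together with their values known. All 13 of their probes above background lay below the median of all genes, where 48.2% of all probes above background did. That was not particular to them, as the 7 probes of PGLS and PGD also lay below. So did every probe above background of GAPDH, PGAM1, GPI, TPI1, HK1, HK3, PFKM, PFKP, PFKFB4, PGM1 and TKT. ENO3, the muscle form and not one of the 29 genes, was by its brightest probe the farthest from 0 of the 25 measured among 39 further pathway genes, with -0.45 at 279 in low-efficiency and 324 in high-efficiency blood and 4 probes between -0.45 and -0.28.

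Pyruvate kinase, the last step before pyruvate, was represented by PKM. Its brightest probe read 2346 in low-efficiency and 2313 in high-efficiency blood (-0.22), the second 119 against 120 (-0.25) and the third 73 against 58 (0.10). A further probe, which the array describes as the M1-type splice form known from muscle, was not well above background in low feed efficiency, at 4 against 15 in high feed efficiency, at least 1.65-fold lower at signals close to background.

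The lactate dehydrogenases were both above the median by their brightest probes, LDHA more than LDHB. LDHA, the muscle-type subunit, read 2118 in low-efficiency and 1524 in high-efficiency blood, a difference of 0.24, and its other probes read 2107 against 1502 (0.25) and 496 against 337 (0.32). Every LDHA probe was thus brighter in low feed efficiency, and 20.0% of all genes lay higher than LDHA. LDHB, the heart-type subunit, read 4540 in low-efficiency and 3576 in high-efficiency blood (0.11) at its brightest probe. The other LDHB probes read 2991 against 2669 (-0.07), 2278 against 2000 (-0.05) and 2161 against 1726 (0.09), on both sides of the median, and 1 more was below background on both arrays. LDHA minus LDHB was 0.13 by the brightest probes, less than the spot error of 0.14 for such a comparison, and 0.25 by the mean over probes. The ranges of their probes did not overlap, and LDHA was the higher, by 0.08 to 0.25, under the 6 alternative processings that changed this gap at all.

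**Figure D2:**
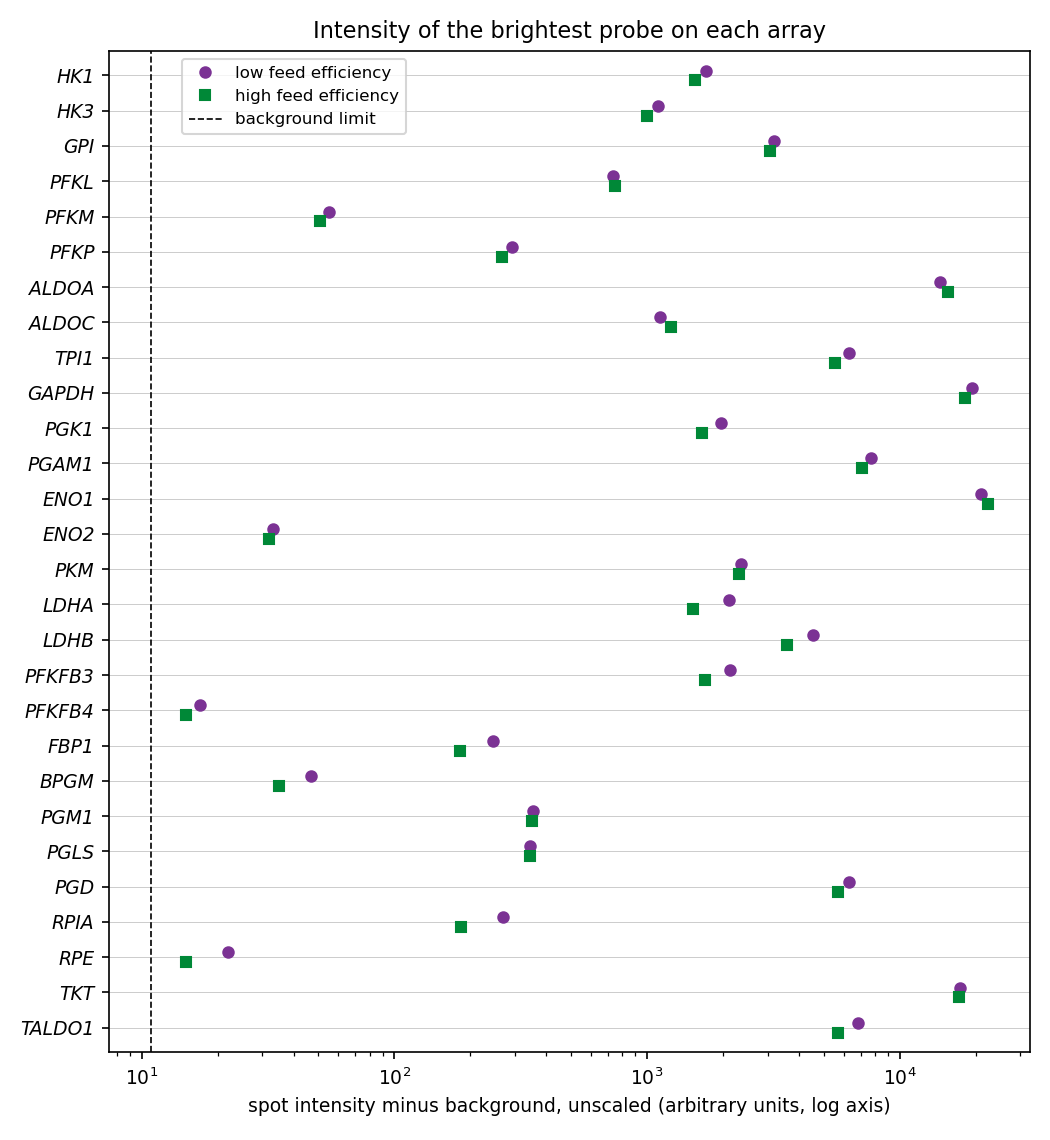
Background-subtracted intensity of the brightest probe (x axis, arbitrary units, log scale, before scaling) on the low feed efficiency array (circles) and the high feed efficiency array (squares) for each enzyme gene (y axis), with the background limit of 10.9 dashed. ALDOA, ALDOC, ENO1 and PFKL are dimmer in low feed efficiency although that array is the brighter by its 75th percentile (98 against 81), while LDHA and RPIA show wide gaps in the other direction.

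Among the regulators, PFKFB3 and PFKFB4 make and remove fructose bisphosphate of the signalling kind, which activates phosphofructokinase. PFKFB3 read 2139 in low-efficiency and 1695 in high-efficiency blood (0.10), and its dimmer probes gave 0.21 and 0.29. PFKFB4 read 17 in low-efficiency and 15 in high-efficiency blood (-0.06), close to background. PFKFB3 minus PFKFB4 was 0.16 by the brightest probes and 0.25 by the mean over probes. It was between 0.21 and 0.36 under the 6 alternative processings that changed it. The spot error of the dim PFKFB4 probe alone is 0.23, and that of PFKFB3 adds to it. FBP1, which runs the phosphofructokinase step backwards in gluconeogenesis and is known from liver and from monocytes, read 245 in low-efficiency and 182 in high-efficiency blood (0.19), with 0.15 at its other probe. All 5 probes of PFKFB3 and FBP1, a pair set together with its values known, lay above the median of all genes. Of the 22000 probes above background on both arrays 11400 did so, and the measured probe of PFKFB4 did not.

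BPGM makes bisphosphoglycerate, which lowers the oxygen affinity of haemoglobin, in red cells. It read 47 in low-efficiency and 35 in high-efficiency blood, a difference of 0.19 with a spot error of 0.23 at this signal. PGM1, the phosphoglucomutase that links glycogen to glycolysis, read 355 in low-efficiency and 350 in high-efficiency blood (-0.22), and -0.12 at its second probe. Its relative PGM2, which acts mainly on ribose phosphate and was chosen after its values were seen, was on the other side: 2213 in low-efficiency and 1481 in high-efficiency blood, 0.34, with 3 probes between 0.34 and 0.47.

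In the oxidative arm of the pentose phosphate pathway, the source of NADPH, the lactonase PGLS and the dehydrogenase PGD lay below the median on all 7 of their probes. PGLS read 345 on both arrays (-0.24) and 207 in low-efficiency against 220 in high-efficiency blood at its other probe (-0.32). PGD read 6290 in low-efficiency and 5681 in high-efficiency blood (-0.09) by its brightest probe. Its others read 5212 against 4813 (-0.12), 4306 against 4903 (-0.42), 713 against 808 (-0.42) and 347 against 345 (-0.23), so the brightest probe gave the smallest difference of the 5.

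The non-oxidative arm, which rearranges pentose phosphates, was split. RPIA, the ribose phosphate isomerase, read 269 in low-efficiency and 184 in high-efficiency blood, a difference of 0.31 from a single probe whose spot was not flagged good on either array. RPE, the epimerase, read 22 in low-efficiency and 15 in high-efficiency blood (0.32), near background. A second RPE probe, at 12 against 7, was above background in low feed efficiency only. TKT, the transketolase, read 17354 in low-efficiency and 17158 in high-efficiency blood (-0.22), with -0.13 at its second probe, and neither spot was flagged good on the high feed efficiency array. TALDO1, the transaldolase, read 6836 in low-efficiency and 5724 in high-efficiency blood (0.02), and 2044 against 1606 (0.11) at its other probe. RPIA and RPE were the highest of the 28 genes as reported, but LDHA was higher than both with normexp, quantile or loess normalization and in the authors' deposited table. Transketolase and transaldolase, which work on the same sugars, lay on opposite sides of the median by their brightest probes. However, the 0.02 of TALDO1 was within the spot SD of 0.10, and with the pixel mean it was -0.004.

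Set side by side, the pentose phosphate median exceeded the glycolysis median by 0.09, which rests on 6 genes, one of them near background. The gap kept its sign, between 0.02 and 0.16, under the 8 alternative processings that changed it at all, but the pentose phosphate median itself took either sign. The 25 measured of the 39 further pathway genes, a list of transporters, isoenzymes and neighbouring enzymes, had a median of -0.06, with 8 above and 17 below, and none was 1.5-fold apart by its brightest probe. Dimmer probes of the pyruvate dehydrogenase kinases PDK1 and PDK4 reached 0.71 (27 in low-efficiency and 14 in high-efficiency blood) and 0.80 (41 against 20), both chosen after their values were seen. After ENO3 the farthest from 0 were SLC2A6, a glucose transporter, at -0.37 (825 in low-efficiency and 906 in high-efficiency blood), and PDK2, a kinase that switches off pyruvate dehydrogenase, at -0.36 (453 in low-efficiency and 494 in high-efficiency blood). Glucose transporters, named here after their values were seen, did not go one way: SLC2A1 gave -0.31 at 76 in low-efficiency and 80 in high-efficiency blood. SLC2A3, the high-affinity form, gave 0.27 at 3646 in low-efficiency and 2565 in high-efficiency blood, with 4 probes between -0.05 and 0.40.

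The median difference of all genes itself depended on signal, and many of these enzymes are bright. It was 0.04 for genes under an intensity of 100, 0.00 from 100 to 1000, -0.08 from 1000 to 10000 and -0.14 above. Of the members, 13 lay between 1000 and 10000, with a median of -0.09, and 4 above 10000, with a median of -0.28. Against genes of like signal 11 of the 28 were above the median. GAPDH was level with its bin (0.00). LDHA stood 0.32, RPIA 0.31, RPE 0.28, LDHB 0.19, FBP1 0.19 and PFKFB3 0.18 above theirs. Farthest below theirs were ALDOC at -0.29, PFKL -0.27, PGLS -0.24, ENO2 -0.23, PGM1 -0.22, ALDOA -0.21 and ENO1 -0.19.

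**Figure D3:**
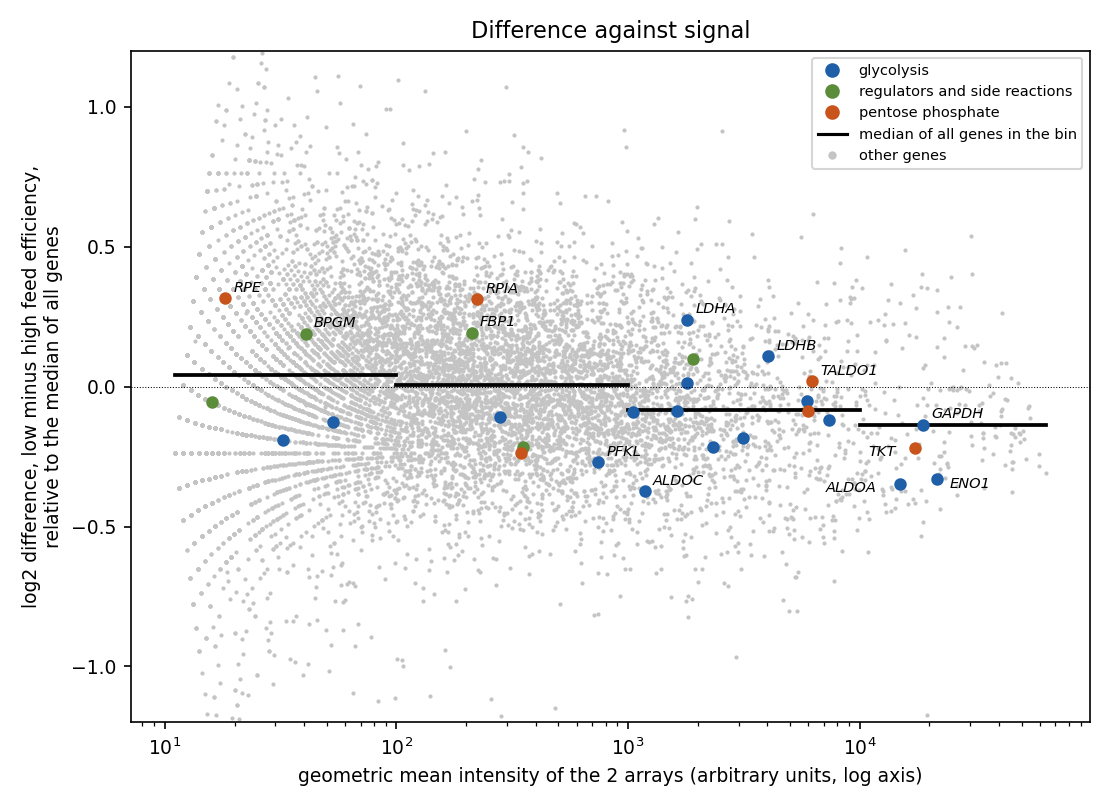
Log2 difference, low-efficiency minus high-efficiency blood (y axis, relative to the median of all genes) against the geometric mean intensity of both arrays (x axis, log scale) for all measured genes (grey, 40 genes beyond 1.2 in either direction not shown) and the enzyme genes (coloured by pathway). Black lines are the medians of all genes in 4 ranges of signal, which fall to -0.14 above 10000, and ALDOA, ENO1 and TKT lie below that line.

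Markers of blood cells also differed between the specimens, and their part in the enzymes' differences was not tested. Of 13 neutrophil markers 10 lay above the median of all genes (median 0.14, summed intensity 89447 in low-efficiency and 65754 in high-efficiency blood). Of 8 measured natural killer and cytotoxic markers 7 lay below it (median -0.30, sum 19926 in low-efficiency and 21382 in high-efficiency blood), and KLRD1 was below background on both arrays. T cell markers had a median of -0.12 (3 above, 6 below, sum 25074 in low-efficiency and 24998 in high-efficiency blood), B cell markers -0.11 (2 above, 4 below, 8617 and 7629) and monocyte markers -0.17 (2 above, 5 below, 29611 and 27967). Platelet markers had -0.21 (2 above, 4 below, sum 28776 in low-efficiency and 23075 in high-efficiency blood). Erythroid markers had 0.08 (3 above, 3 below, sum 33642 in low-efficiency and 25096 in high-efficiency blood). HBA gave most of these sums, 26648 in low-efficiency and 20058 in high-efficiency blood (0.17). ALAS2 lay below, at -1.38 (112 in low-efficiency and 248 in high-efficiency blood), the farthest from 0 of all markers measured. SLC4A1, ANK1 and KLF1 were among the erythroid markers below background on both arrays. Markers of every class were thus above background on both arrays, as the label of whole blood implies. After scaling and relative to the median of all genes, the log2 ratios of the sums were 0.21 for neutrophil and -0.34 for natural killer and cytotoxic markers. They were -0.23 for T cell, -0.06 for B cell, -0.15 for monocyte, 0.08 for platelet and 0.19 for erythroid markers.

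Of the 28 enzymes, 23 stayed on the same side of the median of all genes under every alternative processing that measured them, 6 above and 17 below; scaling alone cannot move a gene across it. The 6 were LDHA, LDHB, PFKFB3, FBP1, BPGM and RPIA, and the exceptions were TPI1, PGK1, PGD, RPE and TALDO1. LDHA ranged from 0.20 to 0.31, ALDOC from -0.42 to -0.29 and ALDOA from -0.38 to -0.23. ENO1 ranged from -0.60 with the pixel mean to -0.22 with loess, and RPE, the dimmest of those above, from -0.04 with normexp background correction to 0.32.

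**Figure D4:**
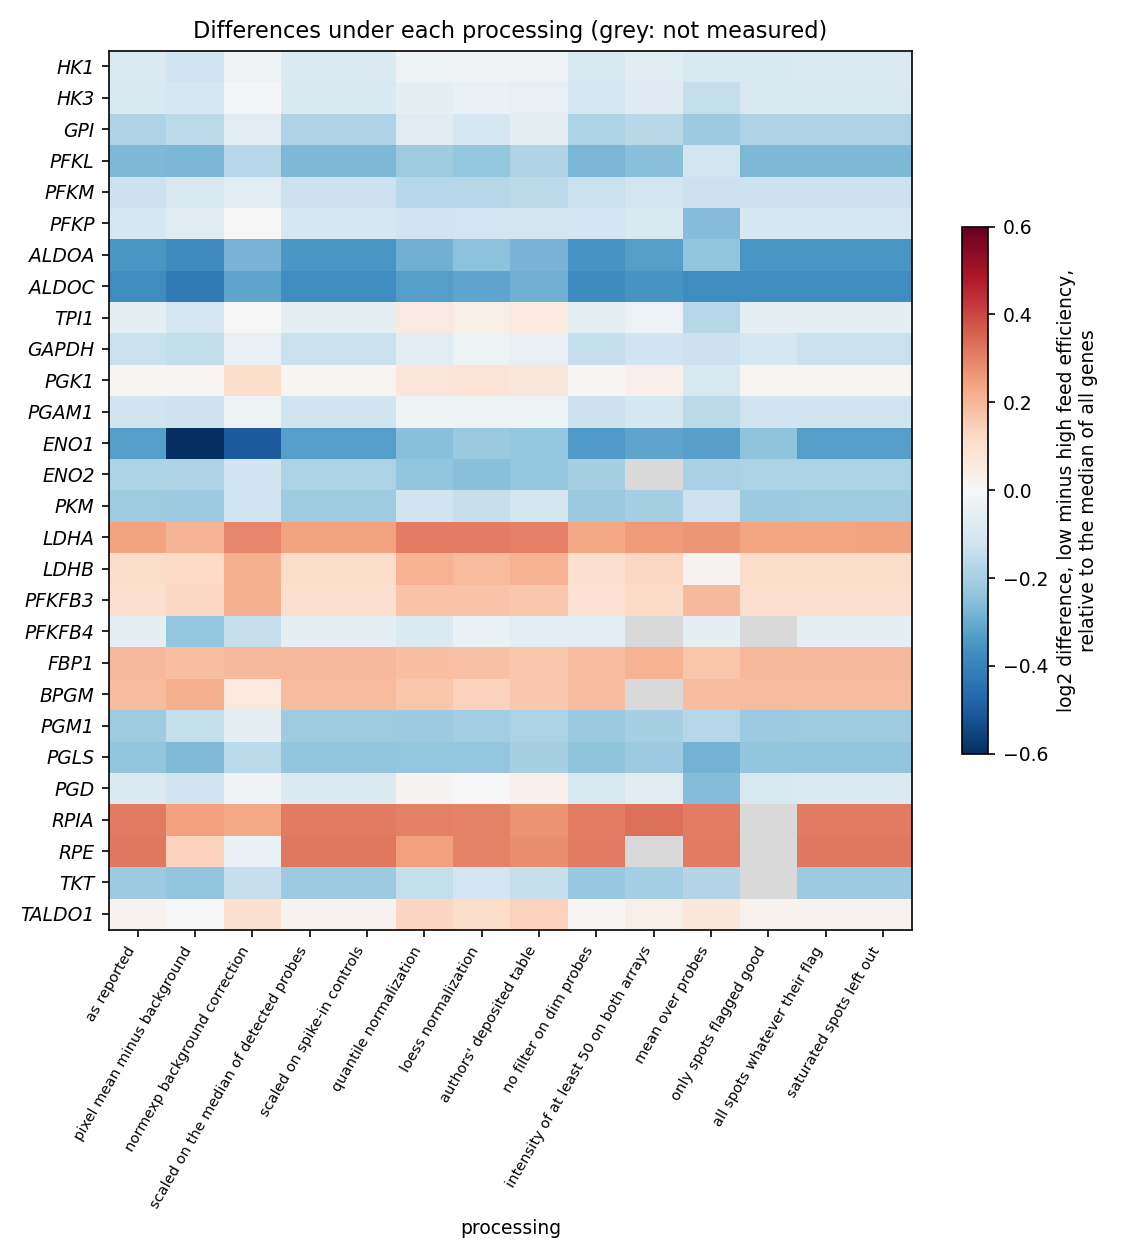
Log2 difference, low-efficiency minus high-efficiency blood (colour, relative to the median of all genes, red above and blue below) of each enzyme gene (rows, pathway order) as reported and under 13 alternative processings (columns), with grey where a gene was not measured. LDHA and RPIA are red and ALDOA, ALDOC and ENO1 blue in every column that measured them, while TPI1, PGK1, PGD, RPE and TALDO1 change side.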

How the data were processed

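Spot intensity at 532 nm was taken from the deposited scanner tables, which GenePix Pro 6.1.0.4 wrote, per the file headers; Agilent Feature Extraction is named in the submitters' processing notes. Per the file headers, negative controls gave the background and nothing was normalized. Both arrays came from 1 slide and 1 scan. The same deposited tables give saturated pixels in percent and a spot's flag as a score (100 good, 0 unflagged, -50 not found). No member's probe had saturated pixels. The plan foresaw an unspecified array signal; the pixel median minus background was used.

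Log2 values make up the authors' deposited value table, normalized in a way not given in the sources used here. Its rows followed the scanner values only after a move by 1 row (Spearman's rho 0.077 and 0.072 before and 1.00 for both arrays after), so it served as an alternative only.

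Control spots, and spots flagged not found although above background, were left out, which kept 43096 probes. Spots of one probe were averaged. Gene names came from the array and from a table of genes on assembly ARS-UCD2.0, from which no coordinate was used. The spot error came from replicate spots of 12 bright and 24 dim probes; between probes of one gene the SD was 0.11 over the 21 members with several probes and 0.25 over all genes.

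The members, the 39 further genes and the markers were chosen with earlier results of these data known. All members are described. Every probe is given where a member's probes fell on both sides of 0 or ran over 0.5 apart, and of the further genes those 1.5-fold apart are named, or else the 3 farthest from 0. The recovery of planted log2 differences was tested on simulated data, in brighter genes only, and counting was not tested. Python 3.11.15 with pandas 2.3.3 and, for normexp (offset 50), R 4.3.3 with limma 3.58.1 were used.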

Additional observations from a re-analysis of the deposited data

How the results depend on the processing

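With 1 array per group no replicate could be left out, and no test was run. No paired analysis was possible because each group has a single sample. Under 13 alternatives (pixel mean, normexp, scaling on the median of detected probes or on 7 spike-in probes, quantile or loess normalization, the authors' deposited table, no filter or a filter at an intensity of 50, the mean over probes, only good or all spots, saturated spots left out) no member reached 2-fold. None was 1.5-fold apart in the values as reported, but ENO1 was with the pixel mean, and RPIA and RPE were with spike-in scaling. The median of all members ran from -0.13 to -0.03 and that of glycolysis from -0.14 to -0.05, while 7 to 11 members were above the all-gene median. The pentose phosphate median, -0.03 as reported, became 0.072 with quantile normalization, 0.053 with loess and 0.085 with the authors' deposited table; the cause was not tested. Of 356 values of single members, 326 moved by less than the spot SD and 30 by more. Many of the 356 could hardly move, so the 326 is not a measure of robustness. Scaling on the median of detected probes or on spike-in probes leaves every relative value as it was. Changing the filter, keeping all spots or leaving out saturated spots shifted all measured members by the same small amount within each alternative. Spike-in scaling moved the median of all genes by 0.38, and with it every unadjusted difference, but no value relative to that median. Values under an intensity of 50, those of ENO2, PFKFB4, BPGM and RPE, are limited by background.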

Other observations

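Probes that the array describes as an enzyme of the list, but that its naming did not tie to a gene, gave values of the same size. A pair of probes described as hexokinase 2 read 124 in low-efficiency and 105 in high-efficiency blood (0.00 relative to the median of all genes) and 102 against 96 (-0.15). Another, designed on a pig hexokinase 2 record, read 107 in low-efficiency and 95 in high-efficiency blood (-0.06). A probe described as bisphosphoglycerate mutase read 27 in low-efficiency and 22 in high-efficiency blood (0.06), where the named BPGM probe gave 0.19. A probe described as hexokinase 1 was below background on both arrays, at 5 in low-efficiency and 6 in high-efficiency blood.

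GAPDHS, the testis form of glyceraldehyde phosphate dehydrogenase, had a probe at 6609 in low-efficiency and 6867 in high-efficiency blood (-0.29), whereas its other probe was below background on both arrays, at 9 in low-efficiency and 7 in high-efficiency blood. These probes were chosen after their values were seen.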
